A study of Mus musculus with 9 samples.

Results

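DNA methylation was examined at the loci of 5 pluripotency factors, Pou5f1, Nanog, Dppa3, Sox2 and Klf4, in mouse embryos made by somatic cell nuclear transfer and in adult fibroblasts of the kind that supplied the nuclei. A locus was a fixed interval on mouse build mm9, and its members were the CpG sites with at least 5 calls in 6 or more of the 8 samples. Of 435 CpGs with any call in these intervals, 213 were kept, against 1151670 of 2200192 in the whole series. All 5 loci had coverage, which was uneven: 16 of 32 CpGs were kept at Pou5f1, 5 of 9 at Nanog, 10 of 22 at Dppa3, 81 of 138 at Sox2 and 101 of 234 at Klf4.

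The embryos (label NTZy14, here NT embryos, 4 samples) were C57/B6 oocytes whose own chromosomes had been removed and replaced by a fibroblast nucleus, activated with strontium chloride in cytochalasin B and cultured in KSOM medium. The fibroblasts (label TT, 4 samples) were confluent cultures from tail-tip tissue of male adults. In each group, samples 1 and 2 carried the strain label BDF1-CAST and samples 3 and 4 the label X1. What the digits in NTZy14 and the name X1 stand for is not given in the sources used here, nor is the age of the animals, the number of embryos pooled or whether samples of a group came from separate animals or cultures. The p-values below therefore reflect how far these samples vary, and part of that variation may be technical. Tail-tip cultures can hold several cell types, and the methylation data carry no expression markers with which to check the fibroblast label.

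The assay was reduced representation bisulfite sequencing. The enzyme MspI cuts DNA at CCGG, short fragments are selected, and bisulfite turns unmethylated cytosines into bases read as T, so only CpGs near CCGG sites are seen. A level here is the percentage of calls that were methylated. It averages over alleles and cells, so a lower level cannot be divided into fewer methylated cells and partial loss in every cell. NT embryo samples held 25239364 to 30396273 calls and fibroblast samples 35442175 to 80142240. Over the series, levels were also averaged over the kept CpGs with at least 5 calls in a sample, each CpG counted equally. This mean was 29.0 to 36.7% in NT embryo samples and 37.5 to 40.5% in fibroblast samples, with no overlap between the groups.

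The 5 genes belong to the network that holds early embryonic cells and embryonic stem cells in the pluripotent state. Pou5f1 (also called Oct4) and Sox2 encode transcription factors that bind DNA together, Nanog encodes a homeodomain factor of the same circuit, and Klf4 encodes a zinc-finger factor used with Pou5f1 and Sox2 to reprogram fibroblasts. Dppa3 (also called Stella) encodes a maternal factor of the oocyte and zygote that protects methylation from removal. In somatic cells the regulatory regions of Pou5f1, Nanog and Dppa3 are known to be methylated, while CpG-rich promoters of the kind found at Sox2 and Klf4 usually stay unmethylated.

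The promoters differ in how many CpGs they offer, which is why 4 of them are printed here. RefSeq promoter sequences (build GRCm38.p6, 250 bases before and 50 after the start of transcription) were available for 4 of the 5 genes; Dppa3 was not among them. Each line gives the 250 bases before the start, 5′ to 3′ on the gene's strand, and capitals mark CpGs with at least 1 call in the deposited files. The Nanog promoter could not be placed on the deposited positions, so its lack of capitals does not show whether its CpGs were called. The positions are chr17:35505782-35506031 on the plus strand for the first of 2 listed Pou5f1 starts, chr6:122707239-122707488 on the plus strand for the first of 2 listed Nanog starts, chr3:34649745-34649994 on the plus strand for Sox2 and chr4:55532476-55532725 on the minus strand for Klf4.
Pou5f1: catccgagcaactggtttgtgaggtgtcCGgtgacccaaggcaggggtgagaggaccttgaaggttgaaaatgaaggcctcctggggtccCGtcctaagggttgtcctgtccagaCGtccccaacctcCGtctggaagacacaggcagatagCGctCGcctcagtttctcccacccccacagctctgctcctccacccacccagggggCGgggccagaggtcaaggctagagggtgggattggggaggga
Nanog: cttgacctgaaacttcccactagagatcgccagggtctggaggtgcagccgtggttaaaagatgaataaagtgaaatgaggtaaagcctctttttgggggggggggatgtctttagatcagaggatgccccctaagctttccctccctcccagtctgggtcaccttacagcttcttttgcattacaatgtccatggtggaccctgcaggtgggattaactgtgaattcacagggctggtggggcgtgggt
Sox2: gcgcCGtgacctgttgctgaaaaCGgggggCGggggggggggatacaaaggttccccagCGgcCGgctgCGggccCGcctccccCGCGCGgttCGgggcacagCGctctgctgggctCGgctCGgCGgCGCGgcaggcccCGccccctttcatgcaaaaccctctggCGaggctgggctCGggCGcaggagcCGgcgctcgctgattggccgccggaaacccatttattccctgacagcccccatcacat
Klf4: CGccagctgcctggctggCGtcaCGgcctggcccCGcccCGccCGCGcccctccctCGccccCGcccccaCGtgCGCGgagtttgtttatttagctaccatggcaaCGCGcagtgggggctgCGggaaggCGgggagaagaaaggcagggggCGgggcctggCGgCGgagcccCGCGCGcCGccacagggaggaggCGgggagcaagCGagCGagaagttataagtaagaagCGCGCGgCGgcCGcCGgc

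In the full 300 bases, the Klf4 promoter holds 40 CpGs, the Sox2 promoter 27, the Pou5f1 promoter 11 and the Nanog promoter 4. These counts exceed those of 96.1%, 84.5%, 58.6% and 31.4% of 32851 RefSeq mouse promoters, whose median is 7. The MspI site, CCGG, which reads the same on both strands and contains 1 CpG, occurs 3 times in the Klf4 promoter, 3 times at Sox2, 2 times at Pou5f1 and 0 times at Nanog; 52.8% of all promoters hold at least 1. Because the deposited positions are on mm9 and the sequences are not, the promoters were placed by matching the spacing of their CpGs to the deposited positions, with no conversion of coordinates. The match used 36 CpGs at Klf4, 22 at Sox2 and 10 at Pou5f1 with none off pattern, against 6, 5 and 3 for the next best place. In the files' own positions the start of Klf4 came to 55545346 (chromosome 4), that of Sox2 to 34548916 (chromosome 3) and that of Pou5f1 to 35642976 (chromosome 17). The Nanog promoter and the second Pou5f1 promoter could not be placed, so no distance from a start is given for Nanog or Dppa3.

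Across whole loci, Dppa3 stood apart: its methylation was lower in all 4 NT embryo samples than in any fibroblast sample. Pou5f1 was lower in 3 of 4 NT embryo samples than in any fibroblast sample, with an unadjusted p of 0.0571 in the exact permutation test. Nanog, Sox2 and Klf4 differed by less than the spread between samples. Calls were summed over the kept CpGs of a locus, and each locus was tested with a two-sided exact permutation of the 8 samples between the groups, which has 70 assignments and can give no p below 0.0286.

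**Figure D1:**
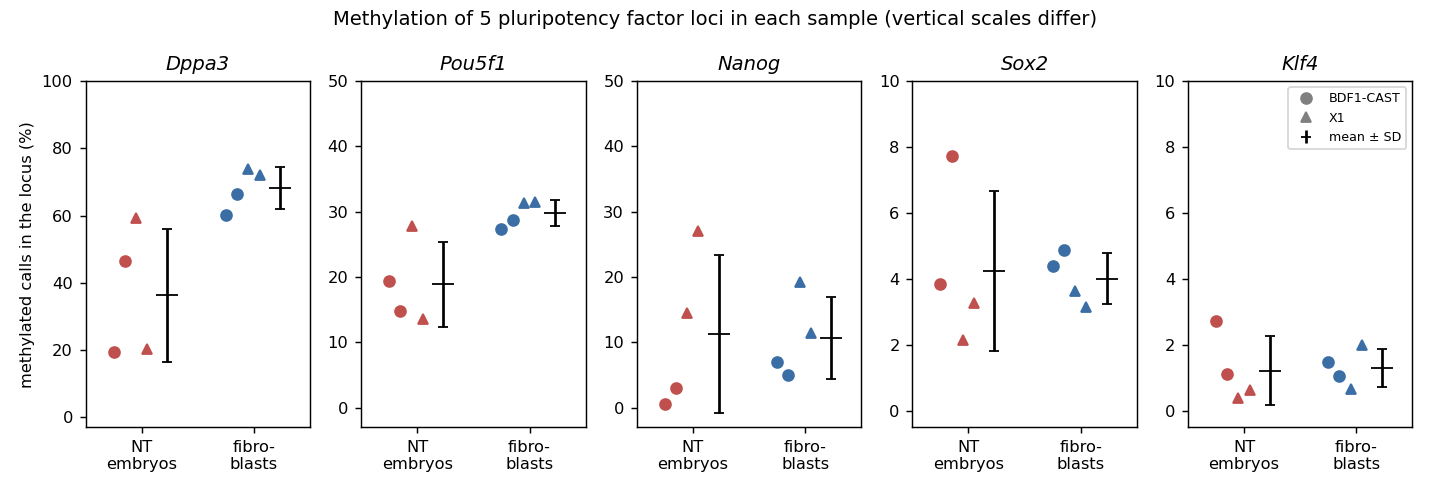
Percentage of methylated calls (vertical axis, scales differ) at each locus for every NT embryo sample (red, left) and fibroblast sample (blue, right); circles are BDF1-CAST, triangles X1, and bars the mean ± SD of 4 samples. At Dppa3 the NT embryo samples lie at 19.4 to 59.4%, below the fibroblast samples at 60.1 to 74.0%.

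Dppa3 (chromosome 6, 122574000 to 122582000) was the most methylated of the 5 loci in fibroblasts. Its level was 19.4, 46.4, 59.4 and 20.3% in NT embryo samples 1 to 4, against 60.1, 66.5, 74.0 and 71.9% in fibroblast samples 1 to 4. NT embryo sample 3 came within 1 point of the lowest fibroblast sample, while samples 1 and 4 were far below it. The means were 36.4 ± 19.8% in NT embryos and 68.1 ± 6.23% in fibroblasts (SD, n = 4 each), a difference of -31.8 points with p = 0.0286 in the exact permutation test. Within BDF1-CAST the difference was -30.4 points, and within X1 it was -33.1 points. By counting error alone, the 95% Wilson interval ran from 13.6 to 26.9% in NT embryo sample 1 (134 calls) and from 56.3 to 63.7% in fibroblast sample 1 (656 calls). No source used here mentions molecular identifiers, so this and later intervals and limits cover counting error only.

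The groups were also fully apart, with NT embryos lower, in 25.3% of 53056 windows of 10 kb across the series; NT embryos were fully above in 0.729% of windows and at 0 of the 5 loci. Among 5203 windows within 5 points of Dppa3 in mean fibroblast level, the share was 23.8% and the median difference -12.1 points. In 10.4% of these windows the difference was at least as low as at Dppa3. The Dppa3 result also rested on how its CpGs were weighted: with each CpG counted equally the difference was -25.0 points and p = 0.0857 in the exact permutation test. With fibroblast library 1 used without its resequenced part, it was -31.5 points and the exact p was 0.0571.

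Within Dppa3, the largest difference was in the first covered stretch. Tiles of 100 bp were tested with a quasi-binomial logistic model over all 271481 tiles of the series that had at least 10 calls in every sample. Calls required a Benjamini-Hochberg adjusted p below 0.05 together with mean levels 20 or more points apart. Of the 46 tiles tested in the 5 loci, 1 was called, against 3.01% of all tiles, and it lay in Dppa3 and was lower in NT embryos. Of all tiles, 2.91% were called lower and 0.107% higher in NT embryos. In that tile (start 122576600, 2 CpGs) the level was 21.9, 37.0, 34.5 and 4.00% in NT embryo samples 1 to 4, against 68.7, 82.5, 84.1 and 77.1% in fibroblast samples 1 to 4. The highest NT embryo sample was thus more than 30 points below the lowest fibroblast sample. The means were 24.3 ± 15.1% and 78.1 ± 6.94% in NT embryos and fibroblasts (SD, n = 4 each), a difference of -53.8 points with an adjusted p of 0.0324 in the quasi-binomial model. Limma on arcsine square root levels gave an adjusted p of 0.0464. Of 42001 tiles within 5 points of it in fibroblasts, whose median difference was -6.51 points, 1.08% were at least as low.

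The tile's difference kept its size when single samples were left out, at -58.0 to -47.0 points, but not its call: the adjusted p was 0.0418 without NT embryo sample 4 and 0.0537 to 0.133 without any other sample. Leaving out any 1 fibroblast sample also left 0 tiles called in the whole series, with 45522 to 58707 tiles at an unadjusted p under 0.05. Both CpGs of the tile were lower in every NT embryo sample. At position 122576653 the level was 23.2, 39.5, 41.5 and 5.88% in NT embryos and 72.3, 86.4, 90.7 and 79.1% in fibroblasts. At 122576684, which is 31 bp further on, NT embryo samples had 12.5, 31.2, 17.6 and 0% and fibroblasts 56.9, 68.2, 73.1 and 73.8%. The 0% rests on 16 calls, which allows a level of up to 18.8%. Whether the deposited positions count from 0 or from 1 is not stated in the sources used here.

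The other 2 tested tiles of Dppa3 lie 2000 bp further on and were spread widely among NT embryos. In the tile at 122578600 (4 CpGs) the level was 0, 67.5, 80.0 and 55.0% in NT embryos, where the 0% rests on 11 calls and allows up to 27.3%, against 54.2, 63.8, 70.4 and 83.8% in fibroblasts. In the tile at 122578700 (3 CpGs) it was 21.8, 72.7, 75.4 and 10.3% in NT embryos, against 52.6, 49.6, 58.3 and 56.1% in fibroblasts. Samples 2 and 3 of the NT embryos were above all fibroblast samples in the second of these tiles and samples 1 and 4 below all of them. The differences were -17.4 and -9.06 points, with adjusted p-values of 0.582 and 0.527 in the quasi-binomial model, and 32.0 and 48.2% of tiles of like fibroblast level were at least as low. Single libraries moved both far: the first was -0.55 points without NT embryo sample 1 and 0.304 points with CpGs weighted equally, and the second was 2.52 points without NT embryo sample 4. A last kept CpG at 122578916 had 4.55% (22 calls) and 60.4% (48 calls) in NT embryo samples 2 and 3, against 65.0, 82.1, 95.7 and 96.6% in fibroblasts; NT embryo sample 1 had 4 calls and sample 4 none. Single CpGs, here and in the series, were compared over the samples with at least 5 calls, which can be fewer than 8. Every NT embryo sample compared was below every fibroblast sample compared at 3 of 10 CpGs in Dppa3 and 2 of 16 in Pou5f1. The same held at 0 of 5 in Nanog, 2 of 81 in Sox2 and 1 of 101 in Klf4. The CpG at 122578916, compared in NT embryo samples 2 and 3 only, is 1 of the 3 in Dppa3. Over the 5 loci that is 8 of 213, or 3.76%, below the 9.86% of kept CpGs in the series. The reverse order was seen at 0 CpGs of the 5 loci, against 1.14% in the series.

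**Figure D2:**
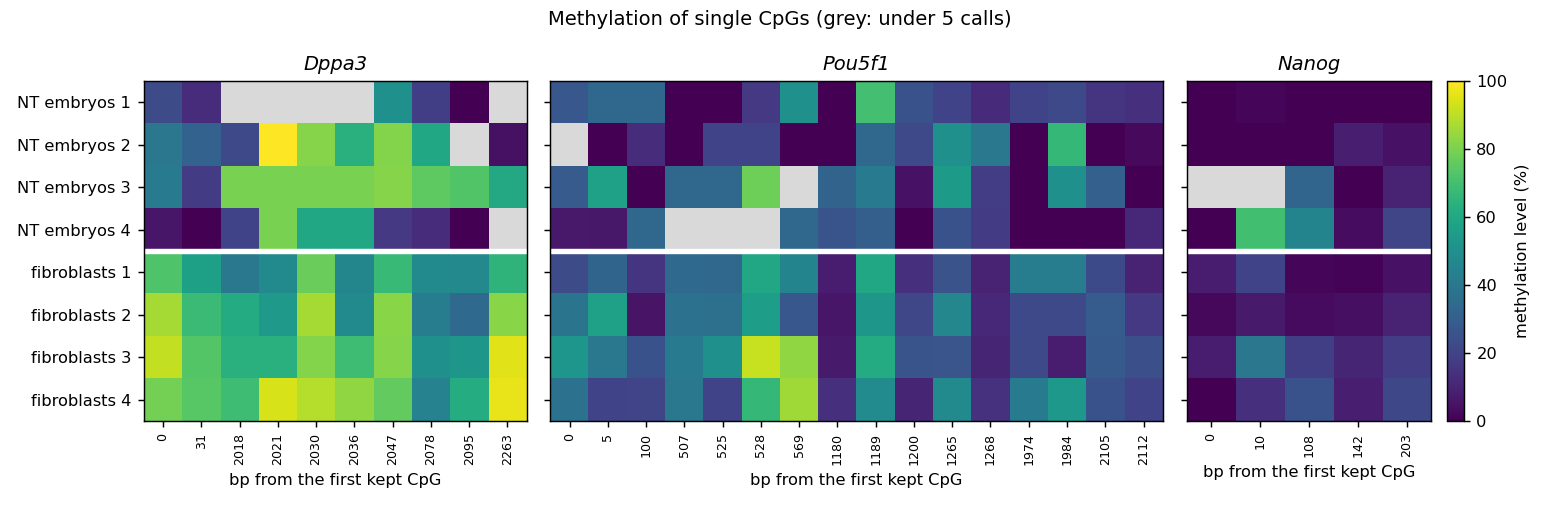
Methylation level of each kept CpG (columns, labelled by distance in bp from the first kept CpG) in NT embryo samples 1 to 4 (upper rows) and fibroblast samples 1 to 4 (lower rows), on a colour scale of 0 to 100%; grey marks samples with under 5 calls. At Dppa3 the first 2 columns are lower in all NT embryo samples, while further along the NT embryo samples differ among themselves, with sample 3 at 60.4 to 81.8%.

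Pou5f1 (chromosome 17, 35638000 to 35650000) held intermediate methylation in fibroblasts with little spread. The level was 19.4, 14.8, 27.8 and 13.6% in NT embryo samples 1 to 4, against 27.4, 28.7, 31.4 and 31.5% in fibroblast samples 1 to 4. NT embryo sample 3 lay just inside the fibroblast range and the other 3 below it. The means were 18.9 ± 6.45% in NT embryos and 29.8 ± 2.02% in fibroblasts (SD, n = 4 each), a difference of -10.9 points with p = 0.0571 in the exact permutation test. It was -11.0 points in BDF1-CAST and -10.8 in X1. Restricted to the 7 CpGs with at least 10 calls in all 8 samples, the difference was -11.4 points and the groups no longer overlapped. The p was then 0.0286 in the same exact test. With the 11 CpGs that had at least 5 calls in all 8 samples, it was -7.87 points with an exact p of 0.0857. Weighting each CpG equally gave -11.8 points, also with an exact p of 0.0857. Among 1848 windows of like fibroblast level, the median difference was -7.54 points and 38.9% were at least as low.

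The kept CpGs of Pou5f1 run from 44 to 2156 bp after the placed start, so they describe the beginning of the gene and not its upstream control regions. In the 300 bases of the promoter only 1 CpG was kept, at position 35643020. Its level was 27.3, 0, 28.6 and 6.67% in NT embryos on 22, 3, 7 and 15 calls, against 22.9, 38.5, 52.6 and 37.5% in fibroblasts on 35, 13, 19 and 32 calls. The groups overlapped, and at 3 calls the second NT embryo value says little.

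Of 4 tested tiles in Pou5f1, 0 were called by the quasi-binomial model and 0 by limma, although 3 had an unadjusted p under 0.05 in each, all lower in NT embryos. For comparison, 25.7% of all tiles of the series had an unadjusted p under 0.05 in the quasi-binomial model. In 2 tiles every NT embryo sample was below every fibroblast sample. In the first, centred 1974 bp after the start, 1 CpG had 20% in NT embryo sample 1 and 0% in samples 2 to 4, against 42.4, 22.2, 22.2 and 41.2% in fibroblasts. The zeros rest on 13, 32 and 14 calls and allow up to 23.1, 9.38 and 21.4%. The difference was -27.0 points with an adjusted p of 0.111 in the quasi-binomial model, and 5.16% of 5424 tiles of like fibroblast level were at least as low. In the second, centred 2174 bp after the start, NT embryos had 14.4, 1.37, 15.4 and 5.66% and fibroblasts 16.4, 22.9, 26.2 and 22.5%, a difference of -12.8 points with an adjusted p of 0.155, and 18% of like tiles were at least as low. Across the 46 tiles of the 5 loci the groups did not overlap in 5, with NT embryos lower in each, against 11.6% of all tiles; NT embryos were fully higher in 0 of the 46, against 0.898%.

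The tile nearest the start, centred 574 bp after it, had the highest fibroblast level of the locus. It had 12.5, 9.09, 43.3 and 61.1% in NT embryos and 42.8, 40.6, 64.3 and 50% in fibroblasts. The NT embryo samples divided by strain, with both BDF1-CAST samples below all fibroblasts and both X1 samples within their range. The difference was -17.9 points with an adjusted p of 0.128 in the quasi-binomial model, and 29.0% of like tiles were at least as low. In contrast, the tile centred 1274 bp after the start differed little, at 23.3, 25.7, 28.7 and 19.8% in NT embryos against 23.8, 27.6, 27.1 and 26.4% in fibroblasts, a difference of -1.81 points with an adjusted p of 0.700 and 48.4% of like tiles at least as low.

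That tile also shows a site pattern in fibroblasts that sums hide. Of 3 neighbouring CpGs, 9 and 11 bp apart, the middle one had 48.3 to 61.5% in the 4 fibroblast samples, while the one before it had 5.88 to 13.8% and the one after it 10.3 to 25.9%. In NT embryos the same 3 CpGs, in order of position, had 0 to 31.8%, 30.4 to 70% and 0 to 25.0%, and the middle CpG was the highest of the 3 in each sample. These CpGs share reads and are not independent.

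**Figure D3:**
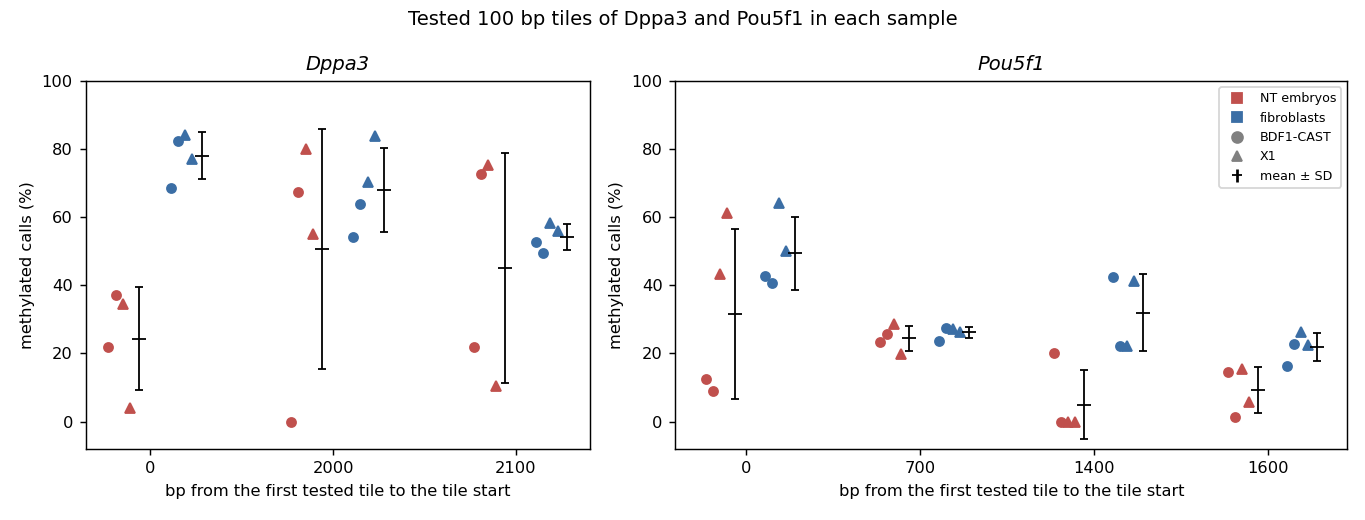
Percentage of methylated calls (vertical axis) in each tested 100 bp tile of Dppa3 and Pou5f1, placed by distance in bp from the first tested tile; NT embryos are red and left of fibroblasts in blue, circles are BDF1-CAST, triangles X1, and bars the mean ± SD of 4 samples. The first Dppa3 tile, with NT embryos at 4.00 to 37.0% and fibroblasts at 68.7 to 84.1%, is the only one called.

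Nanog (chromosome 6, 122652000 to 122666000) was covered by 5 CpGs within 204 bp, and their distance from the Nanog start is not known here. The level was 0.562, 3.08, 14.5 and 27.0% in NT embryo samples 1 to 4, against 7.03, 5.08, 19.3 and 11.5% in fibroblast samples 1 to 4. The NT embryo range enclosed the fibroblast range. The means were 11.3 ± 12.1% in NT embryos and 10.7 ± 6.30% in fibroblasts (SD, n = 4 each), a difference of 0.593 points with p = 0.971 in the exact permutation test. It was -4.24 points among BDF1-CAST samples but 5.42 points among X1 samples.

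With calls summed over the locus, the samples of Nanog separated by strain label, as did those of Sox2 in the other order. All 4 X1 samples, at 11.5 to 27.0%, were above all 4 BDF1-CAST samples, at 0.562 to 7.03%, a pattern shared by 8.11% of the 10 kb windows of the series. At Sox2 all 4 X1 samples, at 2.14 to 3.63%, were below all 4 BDF1-CAST samples, at 3.86 to 7.72%, as in 1.6% of windows. The same order held in 0 of the 15 tested Sox2 tiles. The Sox2 sums include a tile at 34552900 with 26.1 and 74.5% in the BDF1-CAST NT embryo samples and 1.00 and 0% in the X1 ones. How far this tile sets the order over the Sox2 locus was not tested. In the Nanog tile at 122652900 (1 CpG), NT embryos had 0, 0, 32.4 and 45.0% and fibroblasts 1.64, 2.94, 18.6 and 25.0%. In this tile the zeros rest on 16 and 10 calls and allow up to 18.8 and 30%. Its X1 samples exceeded its BDF1-CAST samples by 29.1 points, with an adjusted p of 0.192 for strain in the quasi-binomial model. In the Nanog tile at 122653000 (2 CpGs) NT embryos had 0, 6.25, 2.90 and 10.2% and fibroblasts 2.55, 6.82, 12.5 and 14.9%, with an adjusted p of 0.362 between the groups in the quasi-binomial model. The strains overlapped there: X1 NT embryo sample 3, at 2.90%, was below BDF1-CAST NT embryo sample 2, at 6.25%, and fibroblast sample 2, at 6.82%. Of the 2 tested Nanog tiles, only the 1-CpG tile thus showed the order seen over the locus. For strain, 0 of the 46 tiles were called by the quasi-binomial model and 0 by limma, with 5 and 3 at an unadjusted p under 0.05; in the series 0.00405% of tiles were called for strain and 14% had an unadjusted p under 0.05. Every X1 sample was above every BDF1-CAST sample in 2 of the 46 tiles, the Nanog tile at 122652900 and that of Pou5f1 nearest its start, against 3.96% of all tiles. BDF1-CAST and X1 samples also differed in how many CpGs they covered, so strain and library cannot be told apart.

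Sox2 and Klf4 were almost free of methylation in both groups. At Sox2 (chromosome 3, 34546000 to 34553000) the level was 3.86, 7.72, 2.14 and 3.26% in NT embryos, against 4.39, 4.87, 3.63 and 3.14% in fibroblasts. NT embryo samples 2 and 3 lay above and below the whole fibroblast range. The means were 4.24 ± 2.42% in NT embryos and 4.01 ± 0.769% in fibroblasts (SD, n = 4 each), a difference of 0.237 points with p = 0.886 in the exact permutation test. At Klf4 (chromosome 4, 55538000 to 55548000) the level was 2.74, 1.12, 0.395 and 0.637% in NT embryos, against 1.5, 1.06, 0.673 and 1.98% in fibroblasts. The means were 1.22 ± 1.05% and 1.30 ± 0.565% in NT embryos and fibroblasts (SD, n = 4 each), a difference of -0.0813 points with p = 0.914 in the exact permutation test. Each of these levels rests on 1542 to 6351 calls.

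The low level held at nearly every site. The fibroblast mean was under 10% at 74 of 81 CpGs of Sox2 and 96 of 101 of Klf4, and the NT embryo mean at 72 and 95 of them. In the promoters printed above, the 12 kept CpGs of Sox2 had 2.82, 2.48, 8.71 and 3.74% in NT embryos and 2.75, 7.57, 1.70 and 2.80% in fibroblasts. The 4 kept CpGs of the Klf4 promoter had 2.86, 3.39 and 0% in NT embryo samples 1 to 3 and 4.69, 0, 0 and 0% in fibroblasts. NT embryo sample 4 had no call there, and the zeros allow up to 6.67% in NT embryo sample 3 and 13.6, 3.12 and 1.96% in fibroblast samples 2 to 4. Of 15 tested tiles in Sox2 and 22 in Klf4, 0 were called by the quasi-binomial model and 0 by limma. An unadjusted p under 0.05 was seen in 3 and 2 in the quasi-binomial model and in 2 and 1 in limma. Over all tiles of the series, the quasi-binomial model called 3.01%, and 25.7% had an unadjusted p under 0.05. Among all tiles under 10% in fibroblasts it called 0.0454%.

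A few tiles away from the starts departed from this. In Klf4, the tile farthest into the gene, centred 2696 bp after the start, had 0, 3.03, 0 and 5.00% in NT embryos, against 20, 23.1, 12 and 11.9% in fibroblasts. The groups did not overlap, and the NT embryo zeros, on 27 and 12 calls, allow up to 11.1 and 25.0%. The means were 2.01 ± 2.45% in NT embryos and 16.8 ± 5.67% in fibroblasts (SD, n = 4 each), a difference of -14.7 points with an adjusted p of 0.0750 in the quasi-binomial model, and 6.25% of 7090 tiles of like fibroblast level were at least as low. In Sox2, the last tile, centred 4034 bp after the start and 2700 bp beyond its tested neighbour, had 26.1, 74.5, 1.00 and 0% in NT embryos and 12.8, 11.1, 15.7 and 6.67% in fibroblasts. Both BDF1-CAST NT embryo samples were above all fibroblasts and both X1 samples below them; the 0% rests on 173 calls and allows up to 1.73%. The difference was 13.8 points with an adjusted p of 0.608, and -2.54 points without NT embryo sample 2.

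The remaining named tiles of these loci were low in both groups. The Sox2 tile centred 434 bp after the start had the lowest fibroblast mean of its locus, 1.61 ± 1.08% in NT embryos and 1.40 ± 0.520% in fibroblasts, and the Sox2 tile with the most calls, centred 734 bp after the start, had 4.92 ± 6.74% and 4.15 ± 2.32% in NT embryos and fibroblasts (SD, n = 4 each). NT embryo sample 4 alone reached 14.5% in that second tile. The Klf4 tile with the most calls, centred 1796 bp after the start, had 2.11 ± 3.76% in NT embryos and 2.20 ± 3.06% in fibroblasts.

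**Figure D4:**
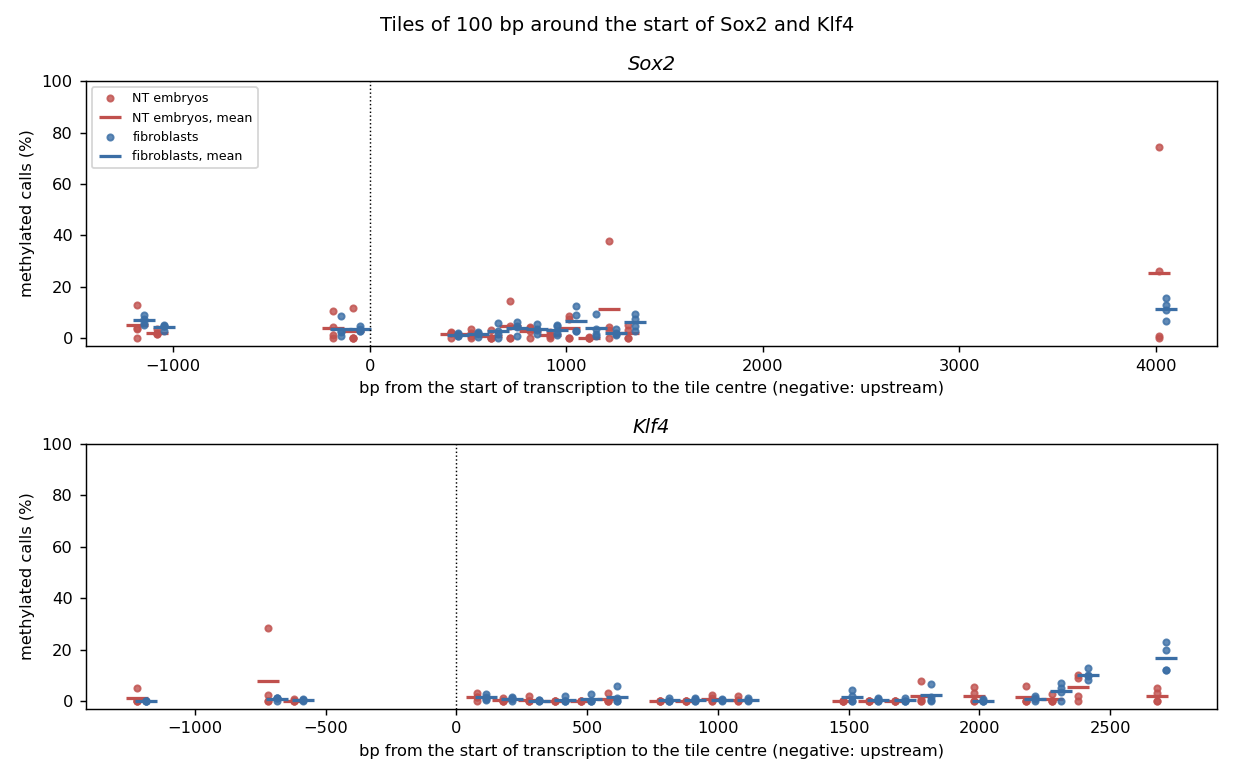
Percentage of methylated calls (vertical axis) in each tested 100 bp tile of Sox2 and Klf4 against the distance in bp of its centre from the placed start (dotted line; negative is upstream); dots are samples and dashes group means, NT embryos red and left of fibroblasts in blue. Most tiles lie under 10% in both groups, while the last Sox2 tile, 4034 bp after the start, spreads between 0 and 74.5% in NT embryos.

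Set beside the rest of the series, the tiles of the 5 loci were mostly unmethylated at the outset. The fibroblast mean was under 10% in 35 of 46 tiles and the NT embryo mean in 38. The median difference over the 46 tiles was -0.632 points, beside -2.08 points over all 271481 tiles. Among all tiles at 70 to 80% in fibroblasts, the class of the called Dppa3 tile, 3.83% were called, and among tiles under 10%, 0.0454%.

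**Figure D5:**
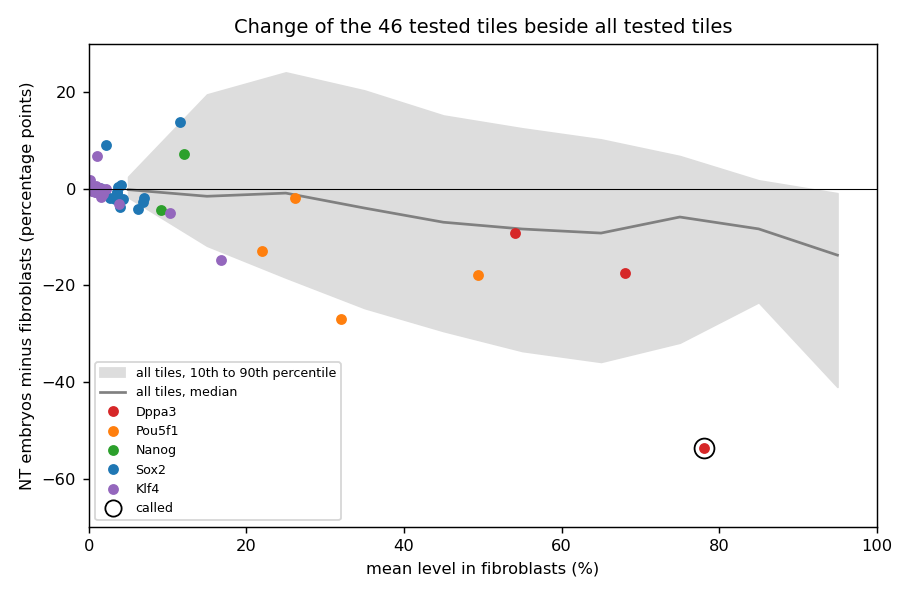
Difference between NT embryos and fibroblasts in percentage points (vertical axis) against the mean fibroblast level in % (horizontal axis) for the 46 tested tiles of the 5 loci, coloured by locus, over the median (line) and 10th to 90th percentile (grey band) of all 271481 tiles. The called Dppa3 tile, at 78.1% and -53.8 points, is ringed and lies under the band.

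Of 16 other pluripotency genes listed for comparison, RefSeq promoters of 8 were available and those of 5 could be placed: Esrrb, Zfp42, Tfcp2l1, Klf2 and Fgf4. Esrrb encodes an orphan nuclear receptor, Zfp42 (Rex1) a zinc-finger marker of embryonic stem cells, Tfcp2l1 and Klf2 transcription factors of the naive state, and Fgf4 a growth factor secreted by pluripotent cells. Of the 29 tiles tested within 1 kb of their starts, 0 were called by the quasi-binomial model and 0 by limma. An unadjusted p under 0.05 was seen in 4 and 2 of them. Over all tiles of the series, the quasi-binomial model called 3.01%, and 25.7% had an unadjusted p under 0.05. Among all tiles under 10% in fibroblasts, the class of every tested tile outside Zfp42, 0.0454% were called. The tested tiles of Zfp42 were methylated: its 2 tiles averaged 30.9 and 33.7% in NT embryos and 52.7 and 61.0% in fibroblasts, with a median difference of -24.5 points and a smallest adjusted p of 0.180 in the quasi-binomial model. The tested tile means of the other 4 genes stayed under 14% in both groups. No tile at the first Esrrb promoter was tested, but its 2 kept CpGs had 15.5, 44.9, 14.3 and 7.14% in NT embryos and 18.6, 35.1, 14.8 and 0% in fibroblasts, where the 0% rests on 27 calls and allows up to 11.1%.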

How the data were processed

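Reduced representation bisulfite sequencing was done on 4 NT embryo and 5 fibroblast libraries. The authors deposited, for each library, counts of all calls and of methylated calls per CpG, with positions on mm9 (build from the submitters' processing notes). Which aligner, caller and read filters were used is not given in the sources used here. The authors' description of the files calls library 1a a second sequencing of fibroblast library 1, and the pair was summed, which left 8 samples. A deposited table of fractions per 100 bp tile was used as a check: at least 99.4% of tiles in each of 7 columns lay within 0.001 of the fractions recomputed from the calls, and 19 of its columns were not used. Its CpG density score, as the authors deposited it, is not reported here.

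CpGs with at least 5 calls in 6 or more samples were kept. Calls were summed per locus, and per 100 bp tile with at least 10 calls in every sample. Tiles were fitted with a quasi-binomial logistic model on stage plus strain; limma 3.58.1 (squeezeVar, R 4.3.3) moderated the dispersion across tiles, values under 1 were set to 1, and F-test p-values were adjusted by Benjamini-Hochberg over all tiles of the series. The model was also run on simulated data with the same spread between samples in every tile, and the outcome is not reported here. The model fit and other steps used Python 3.11.15, numpy 2.4.6, pandas 2.3.3 and scipy 1.17.1. Named tiles were all tested tiles in loci with 6 or fewer; otherwise each called tile and those with the most calls, the highest or lowest fibroblast mean or the largest difference. Promoters were placed by at least 5 matched CpGs, none off pattern and 2 more than the next best place. The members, lists and tests were chosen with earlier results of these data known. The windows and tiles of like level, and the 1 kb around other genes, were chosen after seeing the data.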

Additional observations from a re-analysis of the deposited data

Results flagged for a closer look

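The 5 loci and the 15 named tiles gave 40 groups of 4 samples. In 4 of them 1 sample's gap to the others exceeded Dixon's 95% limit, and NT embryo sample 1 was that sample in each. Over all 46 tested tiles the limit was exceeded in 22 of 92 groups. The sample was NT embryo sample 1 in 7, sample 2 in 5, sample 3 in 1, sample 4 in 2 and a fibroblast sample in 7. For normally distributed values chance alone gives about 1 in 20. That rate need not hold for levels at 0 or on few calls. Where the other samples are all at 0%, as at Pou5f1 35644900 and Klf4 55546500, any methylated call exceeds the limit. These counts therefore cannot show whether a sample is unusual. NT embryo sample 1 had 20% in the Pou5f1 tile at 35644900, on 10 calls, where the other NT embryo samples had 0%, which allows up to 9.38 to 23.1%. In the Klf4 tile at 55543500 it had 7.73%, against 0 to 0.723% in the others, and in the Klf4 tile at 55546500 it had 5.00%, which is 1 of 20 calls, against 0% in the others, which allows up to 14.3 to 30%. In the Sox2 tile at 34549300 it had 0%, where the others had 1.96 to 2.30%; on 97 calls the 0% allows up to 3.09%, which takes in the others.

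Relative to the mean of the fibroblasts of the same strain, the mean change had opposite signs in the 2 strains in 5 of the 15 named tiles. In 2 of them each single NT embryo sample followed its strain, both of one strain above and both of the other below; the difference was not tested. In the Sox2 tile at 34552900 the change was -10.7 points in X1 and 38.4 points in BDF1-CAST, a difference of -49.0 points. In the Nanog tile at 122652900 it was 16.9 points in X1 and -2.29 points in BDF1-CAST, a difference of 19.2 points. The BDF1-CAST NT embryo samples of that tile had 0% on 16 and 10 calls. This allows up to 18.8 and 30%, so these samples need not lie below the fibroblasts of their strain.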

How the results depend on the processing

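At Dppa3 the difference stayed negative under every alternative run; it was -31.5 points (exact p = 0.0571) with fibroblast library 1 without 1a and -25.0 points (exact p = 0.0857) with CpGs weighted equally. At Pou5f1 it was -11.4 points (exact p = 0.0286) with at least 10 calls in all 8 samples. With at least 5 calls in all 8 samples it was -7.87 points (exact p = 0.0857), and with CpGs weighted equally -11.8 points (exact p = 0.0857). Leaving out 1 sample gave -39.4 to -26.1 points at Dppa3, -13.9 to -9.12 at Pou5f1, -4.65 to 4.17 at Nanog, -0.921 to 0.938 at Sox2 and -0.586 to 0.194 at Klf4; 3 samples against 4 cannot give an exact p below 0.0571.

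With at least 5 calls per CpG in all 8 samples, the 8182 of 271481 tiles called in the series became 4459 of 253422. They became 3679 of 174858 with 20 and 12371 of 340123 with 5 calls per tile. Library 1 without 1a gave 5266 of 270392, and tiles of 1000 bp gave 19660 of 155041. When 1 sample was left out, 0 to 7447 of 271481 tiles were called. Counts thus changed together with the number of tiles tested in all but the last of these, and the cause was not tested. In the 5 loci the 1 call became 0 to 1 when 1 sample was left out, with 5 to 9 tiles at an unadjusted p under 0.05. The 11 tiles called for strain became 5, 29, 6 and 2 under the first 3 of these choices and library 1 without 1a, 5 with limma, 17 without a minimum difference and 0 when any 1 sample was left out. With at least 10 calls per CpG in all 8 samples the Dppa3 tile was at -54.6 points with an adjusted p of 0.0683 in the quasi-binomial model. Of 265 alternatives for named tiles, 9 lost the call, all of the Dppa3 tile at 122576600. The sign changed in 21 of them, in 7 of the 15 named tiles, none of which was called; the cause was not tested. When 1 sample was left out, the difference ran over -0.0252 to 0.741 points in the Sox2 tile at 34549300, -2.41 to 2.41 at 34549600 and -2.54 to 22.3 at 34552900. It ran over -1.96 to 1.4 in the Klf4 tile at 55543500, -19.2 to 2.52 in the Dppa3 tile at 122578700 and -1.24 to 13.8 in the Nanog tile at 122652900. With CpGs weighted equally the difference was -0.492 at Sox2 34549300, 2.5 at Klf4 55543500, 0.304 at Dppa3 122578600, and, over whole loci, -0.0956 at Nanog and -0.195 at Sox2. In BDF1-CAST alone it was -0.524 and -3.21 at Sox2 34549300 and 34549600, 3.15 at Klf4 55543500, -2.29 at Nanog 122652900, and, over whole loci, -4.24 at Nanog and 0.65 at Klf4. In X1 alone it was -10.7 at Sox2 34552900 and -0.688 over the Sox2 locus. Higher call minimums gave -0.557 at Sox2 34549300 (10 calls in all 8 samples) and -0.339 over the Nanog locus (5 calls in all 8). Fibroblast library 1a alone gave -0.876 at Sox2 34549600, and library 1 alone 0.225 at Klf4 55543500. The Klf4 tile at 55542600 was at -9.47 points in X1 and -20.0 in BDF1-CAST.

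Sample numbers did not pair the samples: deviations of same-numbered samples correlated at 0.107, 0.124, 0.193 and 0.0402, and not every sample correlated best with its own number. With the replicate block, 0 tiles were called in the series and 0 in the 5 loci (5 at an unadjusted p under 0.05), and the Dppa3 tile had an adjusted p of 0.204. The paired exact p was 0.125 at Dppa3 (-31.8 points) and at Pou5f1, the smallest that 4 pairs allow, 1 at Nanog, 0.875 at Sox2 and 0.75 at Klf4.

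Depth limits the NT embryo values most: the Dppa3 locus had 134 to 187 calls per NT embryo sample and 265 to 656 per fibroblast sample, and single tiles had as few as 10.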
